A study of Mus musculus with 18 samples.

Results

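The NMDA receptor is a glutamate-gated ion channel, and its subunits are encoded in the mouse by 7 genes, Grin1, Grin2a, Grin2b, Grin2c, Grin2d, Grin3a and Grin3b. These 7 of the 30905 genes in the count tables were chosen by their symbols, and their expression was followed in nuclei from 2 brain regions, hippocampus (Hip) and prefrontal cortex (PFC). The nuclei came from Kun Ming mice killed at 8 weeks of age in 3 groups of 3. Germ-free (GF) mice had no microbiota, specific pathogen free (SPF) mice carried a microbiota free of listed pathogens, and colonised GF (CGF) mice were GF mice co-housed with SPF mice from 4 weeks of age. Housing of the GF and CGF groups was in isolators, and each mouse gave 1 library per region, 18 in all. The mice are called here by their label numbers, 5, 6 and 7 for GF, 30, 31 and 32 for SPF and 17, 18 and 19 for CGF, and per-library values are given in that order. The sources disagree on which GF mouse is 6 and which is 7, in both regions alike. The sample labels were followed, and no group value depends on it.

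NMDA receptors assemble from obligatory GluN1 subunits, the product of Grin1, which bind the co-agonist glycine or D-serine, and from GluN2 or GluN3 subunits. GluN2 subunits (Grin2a to Grin2d) bind glutamate and set the kinetics, magnesium block and scaffold contacts of the channel, and GluN3 subunits (Grin3a and Grin3b) bind glycine and lower the calcium flow. In the forebrain GluN2B prevails early in life and GluN2A joins it as synapses mature, GluN2D is known from interneurons, GluN2C from astrocytes and the cerebellum, and GluN3A from young neurons and some interneurons.

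The Hip libraries held 49067853 to 63217083 unique molecular identifiers (UMIs, tags that count single molecules), with medians of 4678 to 7579 per nucleus. The 3 GF libraries of the PFC were no shallower, at 59126586 to 71463928 UMIs and medians of 6795.5 to 7426.5, but the 6 SPF and CGF libraries of the PFC held 20336250 to 26949210 UMIs, with medians of 2353 to 3208. These 6 libraries stand apart from the other 12, so in the PFC the contrast of GF with either colonised group, and in SPF and CGF mice the contrast of PFC with Hip, cannot be told apart from this difference between libraries. CGF and SPF libraries overlapped in total UMIs in both regions, while the PFC medians per nucleus were slightly lower in CGF (2353 to 3035.5) than in SPF (3037 to 3208). In the Hip the GF libraries had medians per nucleus of 4678 to 5905 UMIs, under the 6172.5 to 7087 of SPF but overlapping the 5460 to 7579 of CGF, and they stood apart in mitochondrial shares of 0.645%, 1.08% and 1.10% of UMIs against 0.128% to 0.471% in SPF and 0.0770% to 0.218% in CGF. In the PFC the shares ran the other way, at 0.359% to 0.594% in GF against 1.66% to 3.22% in SPF and 1.28% to 2.24% in CGF. The part of these shares in the differences of GF mice, and in those between regions, given below was not tested. Pairs of libraries shared 6 to 29 cell barcodes. Nuclei were clustered on marker genes alone, and the clusters named from them, with no Grin gene among the markers. A name such as astrocyte stands for astrocyte-like throughout. Of 138000 nuclei, 125846 fell in 6 classes, and in the PFC this share was 84.9% for CGF, 91.1% for GF and 87.4% for SPF. Neurons were further split into 8 subtypes in the Hip and 10 in the PFC. In both regions part of the excitatory neurons and interneurons fell in no subtype and count in the class alone. Within the upper-layer and Rorb subtypes of the PFC, clusters 11, 19, 23 and 32 were mostly SPF and CGF nuclei and clusters 2, 14 and 28 mostly GF nuclei. The 912 PFC astrocytes in cluster 29 were 618 GF, 154 SPF and 140 CGF nuclei beside 1264, 1272 and 1570 in the other astrocyte cluster. In the Hip, DG cluster 14, with mt-Cytb and mt-Co3 among its leading genes, was 1226 GF, 472 SPF and 379 CGF nuclei of 6023, 4868 and 5082 in DG, and interneuron clusters 10 and 14 of Sst were 145 and 97 GF, 64 and 34 SPF and 57 and 19 CGF nuclei. Values of these types between groups compare partly different clusters. A level is given in CPM (UMIs of a gene, scaled by the sum of all UMIs of the same type and library to counts per 1000000), which was not divided by transcript length, so levels are compared across types for 1 gene and not between genes.

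The subunits descend from a common gene, and how alike the transcripts are decides whether a read can be placed on 1 of them. The longest exact stretch shared by the reference transcripts of a pair is shown for 3 of the pairs, which do not include the longest over all pairs, each lying in the coding part of both:
Grin2c and Grin2d: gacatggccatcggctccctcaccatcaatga
Grin2a and Grin2b: agtgacaagaagttccagagacct
Grin3a and Grin3b: gatttcaccagccctttcttctc
These runs are 32, 24 and 23 bases long, shorter than the reads of the sequencing run that the paper describes. Grin1 shared at most 17 bases with any other member.

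On the GRCm38 assembly Grin1 lies at chr2:25291181-25319187 on the minus strand and spans 28.0 kb. Grin2a (chr16:9567898-9995560, minus strand) and Grin2b (chr6:135713233-136173511, minus strand) are among the longest of all annotated genes, at 427.7 and 460.3 kb. Grin2c spans 18.1 kb at chr11:115249169-115267243 (minus), Grin2d 46.5 kb at chr7:45831883-45878378 (minus), Grin3a 184.1 kb at chr4:49661611-49845744 (minus) and Grin3b 6.5 kb at chr10:79970715-79977190 (plus). Whether introns or strand were used in counting is not given in the sources used here, and nuclear RNA is rich in introns, so the long members may gather reads along their introns. Of the overlapping genes in the count tables, Grin1os lies on the other strand from Grin1, Gm14329, Gm14330 and Gm26653 from Grin2b, Gm45441 and Kdelr1 from Grin2d and Tmem259 from Grin3b, while Ppp3r2, on the strand of Grin3a, had no UMI in excitatory nuclei, and reads from such partners could not be told apart here from those of the subunit if strand was not used.

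Grin1 was the most evenly spread subunit among neurons. In the Hip its mean over 9 libraries ran from 569 ± 59.3 CPM (SD) in CA1 pyramidal neurons through 546 ± 58.8 in dentate gyrus (DG) granule neurons, 500 ± 52.9 in subiculum and 493 ± 50.9 in CA3 to 359 in Lamp5 interneurons, and in the PFC from 546 in layer 6 corticothalamic (L6CT) neurons to 370 in L6b neurons. Subiculum and CA3 did not differ beyond their spread (log2 ratio 0.02 ± 0.09 SD, higher in 6 of 9 libraries), nor did Sst and Pvalb interneurons of the Hip (0.00, 5 of 9), whereas CA1 exceeded DG in 9 of 9 libraries by a log2 ratio of 0.06. Interneurons held less Grin1 than excitatory neurons of the same library, by 0.45 ± 0.07 on the log2 scale in the Hip and 0.25 ± 0.06 in the PFC, in 9 of 9 libraries each. Tests between types were made for interneurons against excitatory neurons and for Pvalb, Vip and Lamp5 against Sst. They were also made for DG and CA3 against CA1, PFC subtypes against upper-layer neurons and other glia against astrocytes. Other pairs, such as subiculum and CA3, are described without a test. The tests were exact two-sided sign-flip permutation tests over 9 libraries, whose smallest p is 0.00390625, on log2(CPM + 1). Benjamini-Hochberg adjustment was over 63 comparisons in the Hip and 84 in the PFC. A tested difference with the same sign in 9 of 9 libraries had an adjusted p of 0.00794 in the Hip and 0.00887 in the PFC. In all, 38 of 63 and 53 of 84 passed, of which 27 and 34 did so under every alternative tried.

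**Figure D1:**
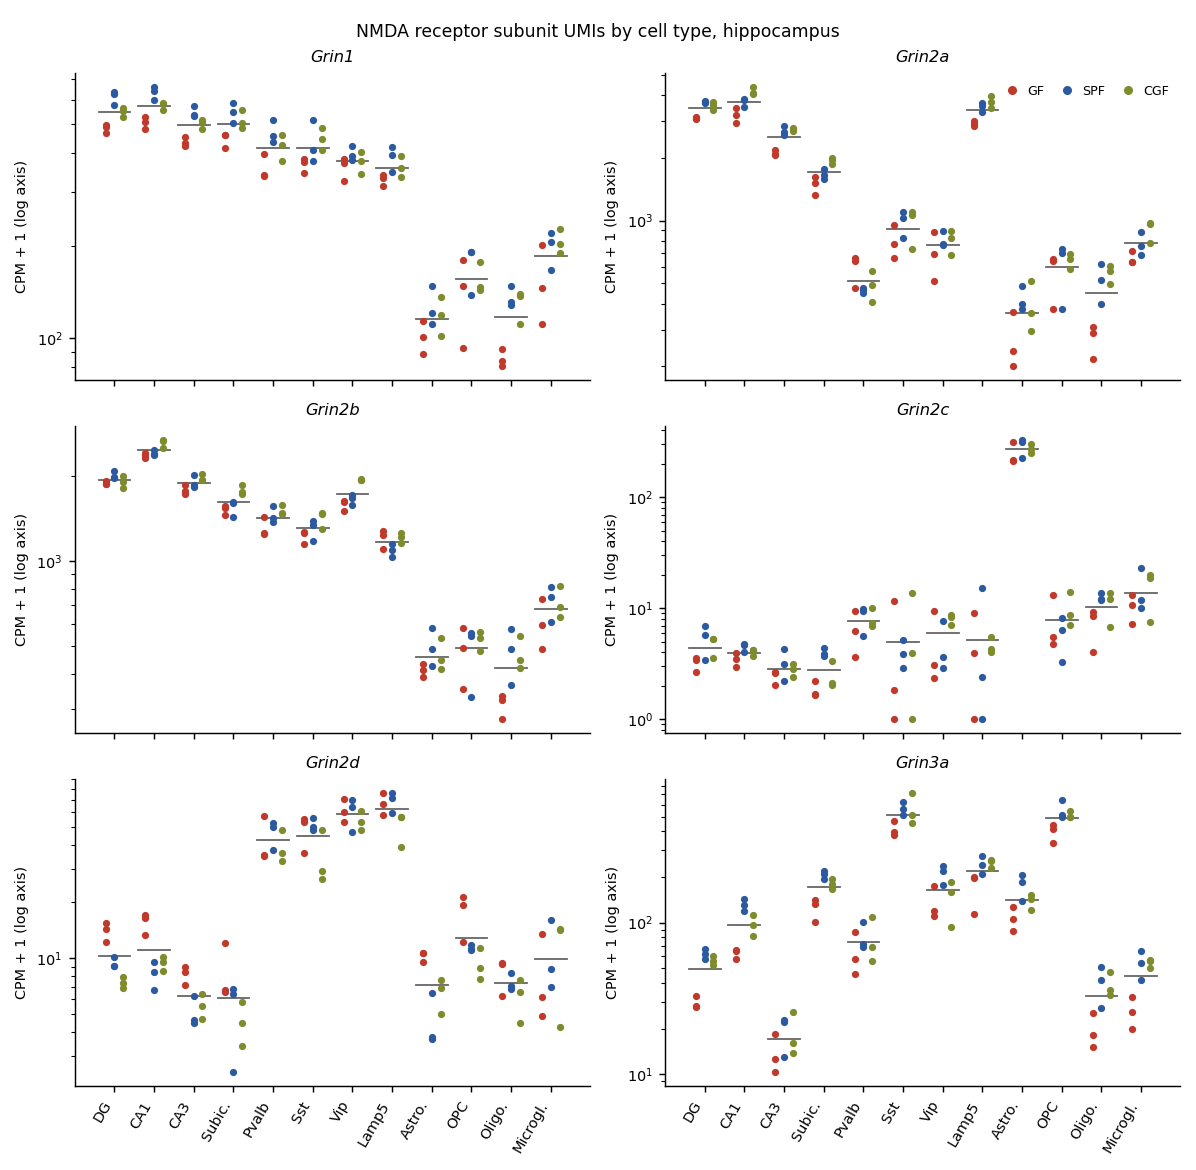
CPM + 1 (log axis) of 6 subunits in the 8 neuron subtypes and 4 glial types of the Hip, 1 point per library coloured by group, with a grey bar at the mean of 9 libraries. Grin2c stands out in astrocytes, Grin2d in interneuron subtypes and Grin3a in Sst interneurons and oligodendrocyte precursors; Grin3b, at most 1.26 CPM, is not drawn.

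Grin2a, which encodes the GluN2 subunit of mature synapses, differed widely among interneurons. In Hip Lamp5 interneurons the 9 libraries lay between 2842 and 3952 CPM, with a mean of 3380 ± 388, close to the 3698 ± 453 of CA1 and 3452 ± 280 of DG. Hip Sst interneurons held 663 to 1101 CPM and Pvalb interneurons 406 to 663, so every Lamp5 value lay above every Sst and Pvalb value. Lamp5 exceeded Sst by 1.90 ± 0.23 (log2, SD, n = 9) in the Hip and 1.04 ± 0.23 in the PFC, in 9 of 9 libraries each. Pvalb lay under Sst by a log2 difference of -0.82 ± 0.49 in the Hip and -0.27 ± 0.22 in the PFC, the latter in 8 of 9 libraries (exact sign-flip test, adjusted p = 0.0149). Among pyramidal neurons CA3 held less than CA1 (log2 difference -0.56) at 2510 CPM, and subiculum held 1701 CPM. In the PFC the L6b neurons were lowest at 578 CPM, -1.82 ± 0.32 against upper-layer neurons at 1999 CPM, and 19 to 45 nuclei per library stood behind L6b. Near-projecting (NP) neurons at 2011 CPM did not differ detectably from upper-layer neurons (0.01).

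Grin2b, the GluN2 subunit that dominates early life, was flatter. It was highest in CA1 at 2456 ± 131 CPM in the Hip and in upper-layer neurons at 2544 CPM in the PFC. DG (1935 CPM) and CA3 (1881 CPM) lay under CA1 by log2 differences of -0.34 and -0.39, and in the PFC the NP neurons (1521 CPM) lay under the upper-layer neurons by -0.74. Among Hip interneurons Vip was highest at 1725 CPM and Lamp5, which was highest for Grin2a, was lowest at 1168 CPM. Interneurons as a class held less than excitatory neurons, by -0.43 in the Hip and -0.40 in the PFC.

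The ratio of Grin2a to Grin2b UMIs, taken within each library, put the subtypes in an order that the plot of the ratio by subtype shows. In the Hip its log2 mean was 1.53 ± 0.21 (SD, n = 9, 1.15 to 1.83) in Lamp5, 0.83 ± 0.11 in DG, 0.58 ± 0.12 in CA1, 0.41 ± 0.13 in CA3, 0.07 ± 0.13 in subiculum, -0.54 in Sst, -1.18 in Vip and -1.48 ± 0.29 in Pvalb. In the PFC it was 0.94 ± 0.16 in Lamp5, 0.42 ± 0.27 in NP, -0.03 in Sst and L5, -0.14 in Rorb, -0.32 in L6CT and upper-layer neurons, -0.34 in Pvalb, -1.37 in Vip and -1.47 ± 0.23 in L6b. Lamp5 headed the order in both regions and Vip stood near the foot of it in both, while Pvalb was lowest in the Hip and in the PFC lay next above Vip, close to L6CT and upper-layer neurons. The genes are alike in length, and the ratio is read only across types. The exact permutation test over 3 groups of 3 passed in no type after adjustment (lowest adjusted p = 0.1 in the Hip and 0.0857 in the PFC). Its smallest p is 0.00357, so a lone type at that p could not pass after adjustment over 14 or 16 types, and the misses do not show that the groups were alike. Unadjusted, 4 of 14 Hip types and 6 of 16 PFC types, classes and glia included, had p under 0.05, among them the subtypes CA1, CA3 and Lamp5 in the Hip and upper-layer, Rorb and L6CT in the PFC. The Hip Lamp5 means were 1.28, 1.69 and 1.62 in GF, SPF and CGF, and the PFC L6CT means were -0.08, -0.24 and -0.63.

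**Figure D2:**
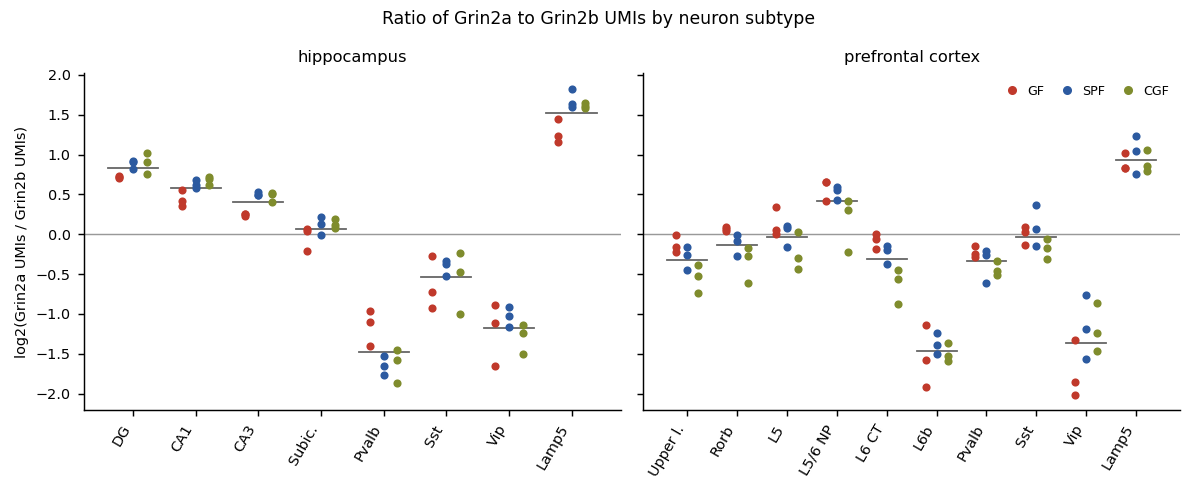
Log2 ratio of Grin2a to Grin2b UMIs per library (points, coloured by group) in each neuron subtype of the Hip and PFC. Lamp5 interneurons lie highest in both regions (means 1.53 and 0.94), with Pvalb lowest in the Hip (-1.48) and L6b lowest in the PFC (-1.47).

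Grin2d, whose product forms slowly closing channels, was a gene of interneurons. The Hip interneurons held 49.9, 51.3 and 52.7 CPM in GF, 49.6, 60.6 and 54.3 in SPF and 49.3, 46.0 and 38.0 in CGF libraries, and the Hip excitatory neurons 12.4, 14.9 and 12.7, 7.09, 8.04 and 7.57, and 7.27, 7.66 and 6.52. Every interneuron value lay above every excitatory value. The log2 difference was 2.35 ± 0.38 (SD) in the Hip and 3.27 ± 0.63 in the PFC, in 9 of 9 libraries each. Lamp5 (61.2 and 112 CPM in Hip and PFC) and Vip (57.6 and 101 CPM) stood above Sst (43.7 and 64.2 CPM) and Pvalb (41.9 and 63.1 CPM), and Lamp5 exceeded Sst by 0.50 and 0.77 on the log2 scale. Vip exceeded Sst by 0.42 and 0.53, in 7 of 9 libraries of each region, but not in the GF libraries of the PFC taken alone (-0.0651). Excitatory subtypes of the PFC held 4.57 to 16 CPM.

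Grin3a, a glycine-binding subunit, was highest in Sst interneurons and in oligodendrocyte precursor cells (OPC). Hip Sst interneurons held 397, 375 and 467 CPM in GF, 625, 559 and 513 in SPF and 451, 714 and 508 in CGF libraries. In the PFC the Sst values were 791, 906 and 835 in GF, 555, 655 and 697 in SPF and 691, 599 and 506 in CGF libraries. In the Hip the order was Sst (512 ± 108 CPM), OPC (486 ± 86.5), Lamp5 (218), subiculum (170), Vip (163), astrocytes (140), CA1 (95.9), Pvalb (73.0), DG (48.5), microglia (43.7), oligodendrocytes (31.8) and CA3 (16.2). Sst and OPC did not differ beyond their spread (log2 ratio 0.07 ± 0.30, 5 of 9 libraries), and OPC exceeded Lamp5 by 1.17 in 9 of 9, both pairs described without a test. Against Sst, Grin3a was lower in Pvalb by -2.82 ± 0.36 in the Hip and -1.75 ± 0.43 in the PFC, in Vip by -1.68 and -3.55, and in Lamp5 by -1.24 and -2.71 (log2, 9 of 9 libraries each). Among hippocampal pyramidal neurons it fell from CA1 to CA3 by 2.48 ± 0.51 on the log2 scale. Among PFC excitatory neurons it was higher in NP (91.2 CPM, 1.18 ± 0.52) and lower in L6CT (15.8 CPM, -1.28 ± 0.34) than in upper-layer neurons (39.1 CPM).

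**Figure D3:**
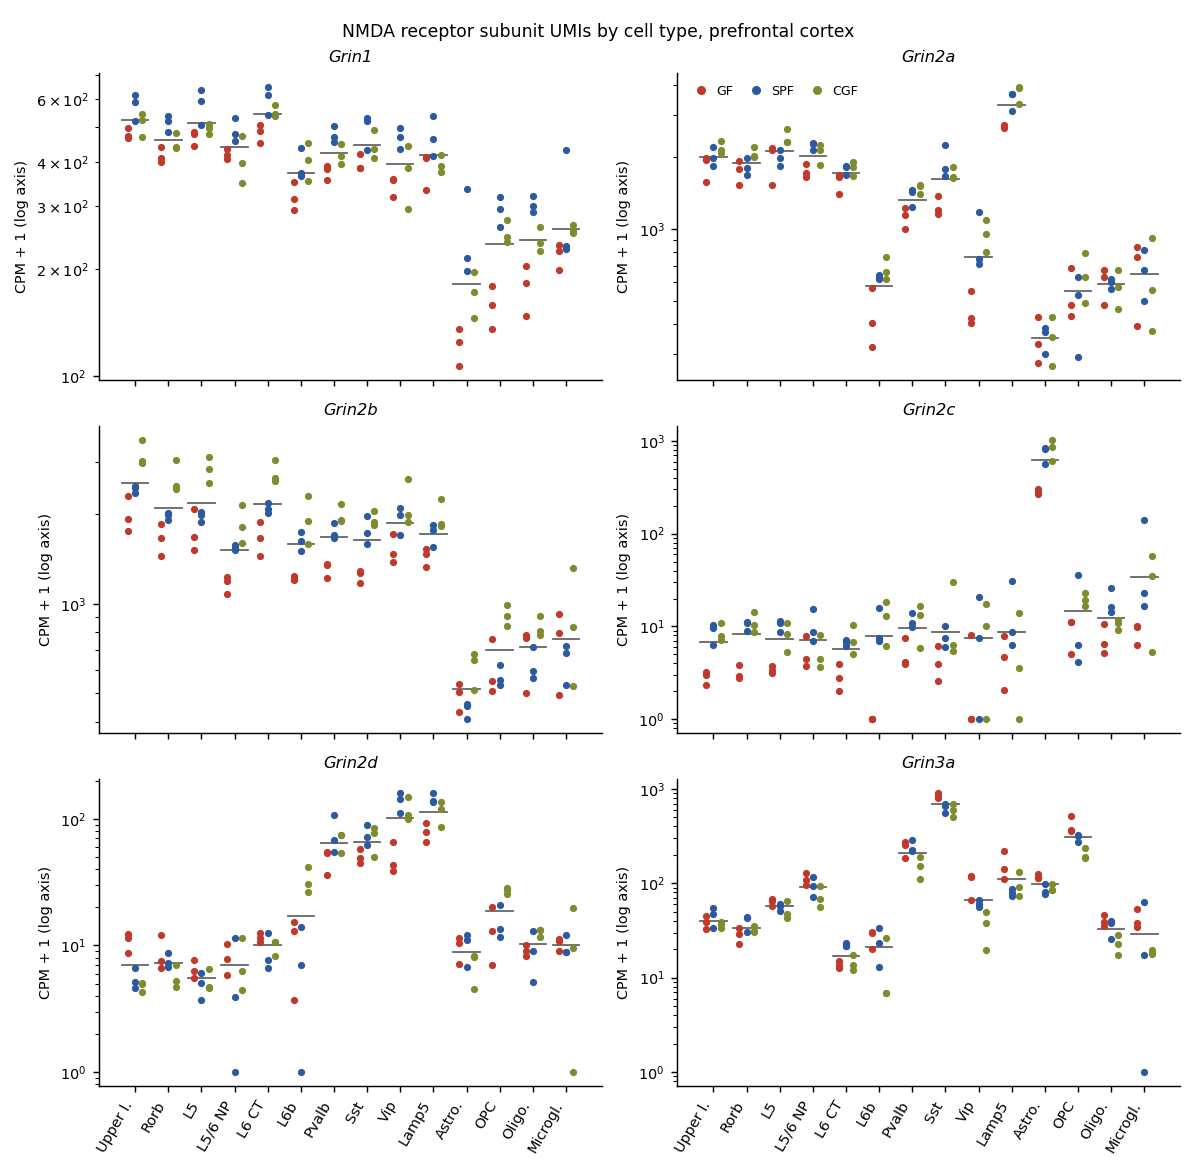
CPM + 1 (log axis) of 6 subunits in the 10 neuron subtypes and 4 glial types of the PFC, 1 point per library coloured by group, with a grey bar at the mean of 9 libraries. Grin3a peaks in Sst interneurons (693 CPM) and Grin2c in astrocytes (617 CPM), where GF points lie under the SPF and CGF points.

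Grin2c was a gene of astrocytes in both regions. Hip astrocytes held 311, 210 and 216 CPM in GF, 312, 327 and 227 in SPF and 302, 272 and 247 in CGF libraries, a range that the 3 groups shared. PFC astrocytes held 300, 283 and 266 CPM in GF, 848, 811 and 568 in SPF and 850, 607 and 1021 in CGF libraries, the GF values all below the others. The means were 269 ± 45.6 and 617 ± 284 CPM, and no other type had a mean above 12.6 CPM in the Hip or 32.8 CPM in the PFC, in both cases microglia. The PFC microglial Grin2c values ran from 4.28 to 140 CPM and rested on 1 to 18 UMIs per library. Against astrocytes, Grin2c was lower in OPC by -5.21 and -5.55 (log2, Hip and PFC), in oligodendrocytes by -4.79 and -5.64 and in microglia by -4.41 and -4.84, in 9 of 9 libraries each.

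Grin3b, whose product is known from motor neurons, was at the edge of detection. Its highest mean was 1.26 CPM in Hip OPC and 2.93 CPM in PFC Vip interneurons, the latter from 1 or 2 UMIs in each of 3 libraries, and no UMI was counted in PFC microglia or L6b neurons. Hip excitatory neurons held 0.347, 0.421 and 0.556 CPM in GF, 0.136, 0.183 and 0.414 in SPF and 0.113, 0.204 and 0.201 in CGF libraries. Tmem259, which overlaps it, held 25.9 to 42.8 CPM in the same nuclei. The few Grin3b differences that passed a test lie at this level and are not read further.

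In droplet data glial nuclei carry some free neuronal RNA, so each subunit's level in glia was set against the level predicted from 11 neuronal genes, none of them a Grin gene or a gate marker. The summed CPM of these 11 genes in a glial type, over their summed CPM in all nuclei of the same library, gave a factor of 23.5% to 63.0%. The factor times the subunit's CPM over all nuclei gave its predicted level. Grin2c in astrocytes was far above it, 269 CPM against 4.14 predicted in the Hip (log2 5.89 ± 0.48 SD, n = 9, from 284 to 740 UMIs per library) and 617 against 7.73 in the PFC (6.20 ± 0.21, 406 to 730 UMIs). Grin3a in OPC was 486 CPM against 38.7 predicted in the Hip (3.66 ± 0.41) and 307 against 32.2 in the PFC (3.18 ± 0.44). Its values in the 9 Hip OPC libraries were 414, 440.5 and 333 in GF, 508, 644 and 496 in SPF and 544, 498 and 494 in CGF, and in the PFC 359, 521 and 367, 271, 321 and 318, and 188, 235 and 185. Every one of them lay above its prediction. Grin3a in astrocytes was 140 CPM against 28.5 predicted (2.30 ± 0.32) in the Hip and 96.4 against 22.5 (2.09 ± 0.25) in the PFC. These 6 differences held in 9 of 9 libraries (exact two-sided sign-flip test, adjusted p = 0.00684 in the Hip and 0.0109 in the PFC over 28 comparisons each). The neuronal genes themselves strayed from their own prediction, between -1.05 (Kcnh7) and 2.58 (Nrgn) on the log2 scale, both in Hip oligodendrocytes. Grin2c in astrocytes and Grin3a in OPC exceeded that spread in both regions, and Grin3a in astrocytes exceeded it in the PFC, where the list reached 1.79, but not in the Hip, where it reached 2.56.

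Apart from Grin2d in PFC OPC, the other glial levels did not rise above this prediction by more than the list's own spread. Grin2c in Hip oligodendrocytes (0.89, 9 of 9 libraries) and microglia (0.80, 8 of 9) passed the test within that spread. With the stricter gate the microglia stood at -0.18 and did not pass (exact sign-flip test, adjusted p = 0.896). With the CPM of the excitatory nuclei in place of that of all nuclei, Grin2c in OPC, oligodendrocytes and microglia lay 1.85, 2.52 and 2.54 above it in the Hip and 2.08, 1.94 and 2.73 in the PFC (exact sign-flip test, adjusted p = 0.00497 and 0.00608), and Grin2d in PFC OPC, astrocytes and oligodendrocytes 2.42, 1.80 and 1.55. The list's spread around that second prediction was not computed. Grin3a in oligodendrocytes differed from its prediction by -0.03 and -0.14 (log2, Hip and PFC) and in microglia by -0.11 and -0.94, and none of these passed the test. Scaling by the median ratio of the list genes put Hip oligodendrocytes at 0.32 (exact sign-flip test, adjusted p = 0.0156), and the prediction from excitatory nuclei put oligodendrocytes at 0.59 (0.00497) and 0.91 (0.00608) and Hip microglia at 0.51 (0.0190), which passed. Grin2a lay under the prediction in all 4 glial types of both regions, from -1.07 (Hip astrocytes) to -0.43 (PFC microglia), the last at -0.27 and no longer passing with median scaling (exact sign-flip test, adjusted p = 0.0684). Grin2b lay between -0.56 and -0.19, but median scaling turned Hip astrocytes to 0.13, left Hip oligodendrocytes and microglia at -0.13 and -0.08, and ended the call in PFC astrocytes (-0.12, exact sign-flip test, adjusted p = 0.403). Grin1, at -0.45 to -0.31 in Hip glia, was lower than predicted in all 4 types, although with the same median scaling Hip astrocytes turned to 0.01 and Hip oligodendrocytes (-0.10) and microglia (-0.09) no longer passed. The lowest list gene lay at -0.78, -0.57, -1.05 and -0.48 in Hip astrocytes, OPC, oligodendrocytes and microglia. In the PFC it lay at -0.68, -0.41, -0.35 and -0.50. All Hip Grin1 and Grin2b values thus lay within the list's own spread. Grin2a lay below it in Hip astrocytes, OPC and microglia, and both Grin2a and Grin2b did in PFC OPC and oligodendrocytes. In PFC glia Grin1 lay at 0.07 to 0.21 and did not pass, but median scaling put PFC astrocytes (0.43) and microglia (0.30) above the prediction (exact sign-flip test, adjusted p = 0.0109 and 0.0312). Grin2d in OPC was 1.0 ± 0.30 above the prediction in the Hip and 1.2 ± 0.72 in the PFC, where the highest list gene reached 1.64 and 1.05, so that only the PFC value, the more variable of the pair, lay outside the list, and with the stricter gate it was 0.85, under that 1.05, and did not pass (exact sign-flip test, adjusted p = 0.301).

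**Figure D4:**
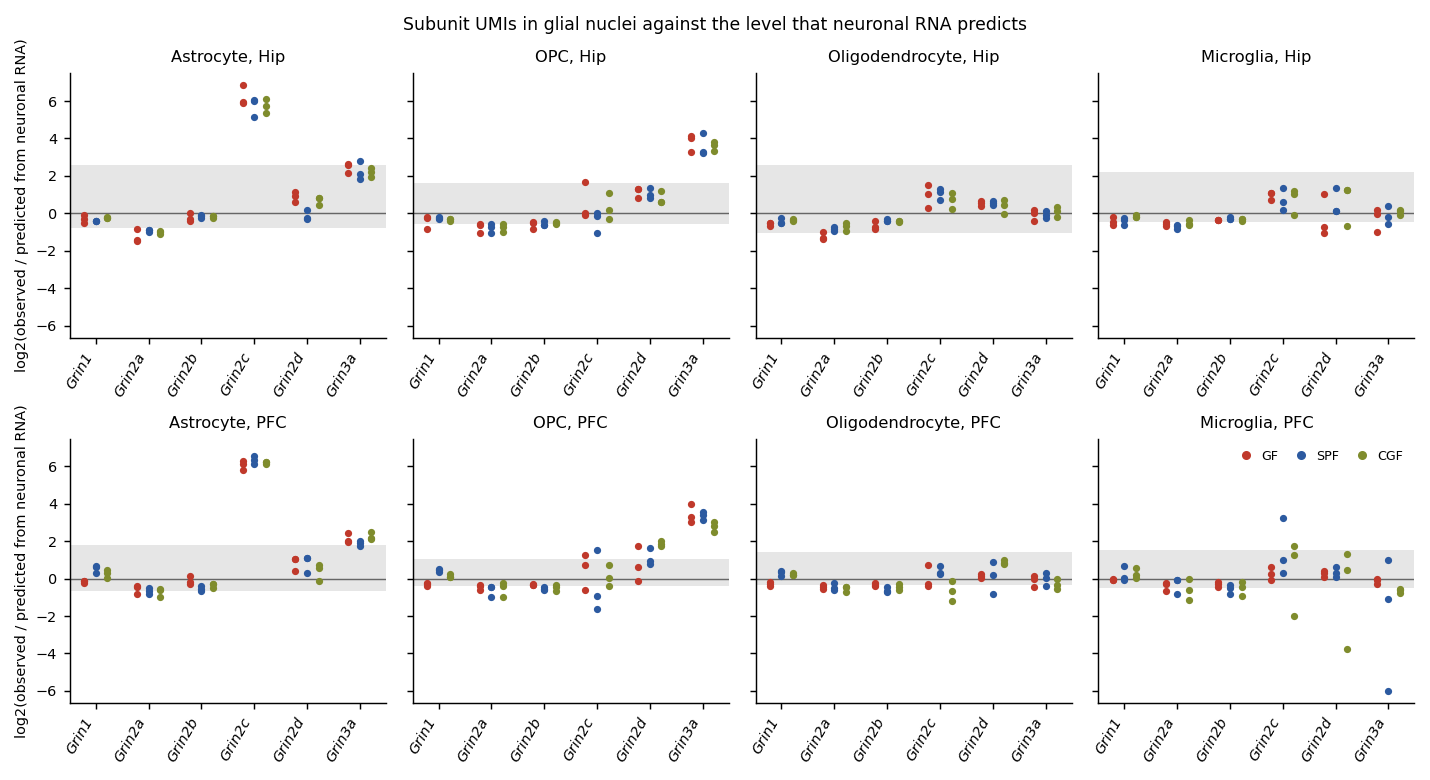
Log2 ratio of observed to predicted level of 6 subunits in 4 glial types per library (points, coloured by group), Hip above and PFC below, with 0.5 CPM added to both. The grey band is the range of the 11 neuronal genes' own mean log2 ratios. Grin2c in astrocytes (5.89 and 6.20) and Grin3a in OPC (3.66 and 3.18) lie above the band in both regions.

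The study's central question was what the lack of a microbiota changes in each cell type, and for the subunits GF was first compared with SPF. UMIs were summed per library and type, and edgeR's quasi-likelihood test was fitted over all genes, with Benjamini-Hochberg adjustment over all of them. In the Hip 39 of 78 tests of a subunit in a type passed at an adjusted p under 0.05, 5 higher and 34 lower in GF, against a background of 33.0% of all tests (18.3% higher and 14.7% lower). In the PFC 31 of 79 passed, 7 higher and 24 lower, against a background of 48.9% (24.7% and 24.2%). The PFC share lies under its background. The excitatory and interneuron classes hold their own subtypes, so their nuclei count more than once in these counts and backgrounds, and in those below. With a correction for gene length and GC content the splits became 13 higher and 15 lower in the Hip and 17 higher and 21 lower in the PFC, and with library totals in place of TMM factors 6 higher and 41 lower in the PFC. Therefore the 13 Hip and 7 PFC differences that passed with the same sign under every alternative tried are given first. The share of all genes that holds in this way was not computed. Such counts, here and below, therefore cannot be set against a background. In bulk sums of nuclei fewer nuclei of a subtype within a class and fewer UMIs per nucleus cannot be told apart.

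Grin1 was lower in GF hippocampal excitatory neurons. The values were 487, 487 and 470 CPM in GF, 599, 615 and 559 in SPF and 544, 551 and 518 in CGF libraries, and the GF values lay below all of the others. The log2 difference of GF from SPF was -0.45 ± 0.07 (SE, edgeR adjusted p = 0.000753). The GF libraries of the Hip are also those of higher mitochondrial share. In DG it was -0.45 ± 0.07 (adjusted p = 0.000411) at 485, 496 and 467 against 625, 632 and 574 CPM, in CA1 -0.48 ± 0.08 (0.00131) and in CA3 -0.50 ± 0.07 (0.000138). Interneurons (-0.40 ± 0.08, 0.00311) and oligodendrocytes (-0.63 ± 0.13, 0.00174) of the Hip moved alike, the latter at a Grin1 level not above that predicted from neuronal RNA. The median factor of the neuronal genes in Hip oligodendrocytes was 28.1% in GF and 34.1% in SPF mice, and its part was not tested. In all Grin1 was lower in 8 of 14 Hip types. The antisense Grin1os lay at 16.8 to 18 CPM in GF and 9.84 to 11.4 in SPF excitatory nuclei, higher in GF, and in the PFC at 13.3 to 16.1 and 1.76 to 2.11. In PFC excitatory neurons Grin1 was 472, 461 and 437 CPM in GF, 572, 600 and 512 in SPF and 501, 472 and 530 in CGF libraries and, although no GF value reached the lowest SPF value, the edgeR difference of -0.15 ± 0.08 did not pass (adjusted p = 0.146). Library totals in place of TMM factors moved the median of all genes by 0.15 in Hip and -0.15 in PFC excitatory neurons. With these totals the difference in the Grin1 effect between the regions did not hold. It was lower in 5 of 16 PFC types, but the length and GC correction turned the sign in interneurons and Pvalb and called 8 PFC types higher.

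Grin3a was lower in most hippocampal types of GF mice. In DG the values were 27.2, 31.7 and 26.7 CPM in GF, 66.3, 61.6 and 56.9 in SPF and 54.9, 59.6 and 51.7 in CGF libraries. In CA1 they were 56.7, 64.9 and 64.1 in GF, 142, 129 and 118 in SPF and 111, 95.7 and 80.9 in CGF, and in subiculum 100, 141 and 131, 220, 208 and 192, and 180, 192 and 165. The GF values lay below both colonised groups in all 3 subtypes, and the part of DG cluster 14, which held more GF nuclei, was not tested. The log2 differences of GF from SPF were -1.23 ± 0.10 in DG (edgeR adjusted p = 2.15e-05), -1.23 ± 0.12 in CA1 (0.000107), -0.86 ± 0.12 in subiculum (0.000322) and -1.14 ± 0.12 in excitatory neurons as a whole (0.000151). Of 14 Hip types 12 were lower, Pvalb and CA3 being the other 2. The 12 include oligodendrocytes and microglia, whose Grin3a did not differ detectably from the main prediction from neuronal RNA (log2 -0.03 and -0.11). The call held in 9 types with library totals and in 4 with the length and GC correction, whose median difference was -0.35 in place of -0.72. Hip OPC, where Grin3a is well above neuronal RNA, were lower by a log2 difference of -0.56 (adjusted p = 0.00919) and Hip Sst interneurons by -0.52, neither of which held under every alternative.

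In the PFC the sign of the Grin3a difference was mostly the other way. Lamp5 interneurons held 110, 216 and 139 CPM in GF, 85.1, 72.8 and 77.7 in SPF and 71.9, 130 and 89.9 in CGF libraries, so that GF lay above SPF and overlapped CGF. The log2 difference from SPF was 1.07 ± 0.25 (edgeR adjusted p = 0.00154) and held under every alternative. GF was also higher in OPC (0.52 ± 0.18, 0.0264), astrocytes (0.51 ± 0.16, 0.0138), Sst (0.50 ± 0.14, 0.00535) and L5 neurons (0.41), and lower in L6CT (-0.59 ± 0.17, 0.00914), where the values were 14, 11.7 and 12.5 against 20.9, 22.1 and 20.8 CPM. These 5 calls were each lost under at least 1 alternative.

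Grin2c was lower in GF in all 8 PFC types where it could be tested. The astrocyte values given above differ by -1.34 ± 0.17 on the log2 scale (edgeR adjusted p = 7.89e-07), and the PFC SPF and CGF libraries that are higher are also the 6 that are shallow and that have fewer nuclei in astrocyte cluster 29. Their part in the difference was not tested. PFC excitatory neurons, where Grin2c is scarce, held 2.27, 1.54 and 2.45 CPM in GF, 8.65, 8.59 and 6.38 in SPF and 7.38, 6.34 and 10.2 in CGF libraries, with GF below the others (-1.76 ± 0.21, 1.85e-05), and the upper-layer and Rorb neurons had differences of -1.90 ± 0.27 and -1.86 ± 0.27. In Hip astrocytes the groups overlapped and the test did not pass, whereas Hip excitatory neurons held 2.02, 2.69 and 2.59 CPM in GF and 3.92, 4.15 and 5.54 in SPF libraries (-1.06 ± 0.18, 0.00113). Whether free astrocytic RNA had a part in the neuronal Grin2c values was not tested.

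Grin2d was higher in GF excitatory neurons of both regions. In the PFC they held 10.4, 7.45 and 8.20 CPM in GF, 5.58, 5.10 and 5.76 in SPF and 4.71, 5.25 and 5.56 in CGF libraries, and the Hip values given above had GF above all others too. The log2 differences were 0.66 ± 0.11 in the Hip (edgeR adjusted p = 0.000998), 0.84 ± 0.17 in CA1 (0.00283), 0.80 ± 0.16 in the PFC (0.000858) and 1.32 ± 0.22 in upper-layer neurons (0.000179), and held under every alternative. Kdelr1, which overlaps Grin2d on the other strand, lay at 24.4 to 27.4 CPM in GF and 14.8 to 18.6 in SPF excitatory nuclei of the Hip, and at 18.7 to 21.3 and 19.8 to 21.8 in the PFC, so it moved with Grin2d in the Hip and overlapped between groups in the PFC. Gm45441, at 2.62 to 3.31 CPM in GF and 0.815 to 1.33 in SPF excitatory nuclei of the Hip and with overlapping ranges in the PFC, did likewise. In interneurons, where Grin2d is most abundant, PFC GF libraries held 57.3, 56.3 and 44.0 CPM and SPF libraries 102, 76.1 and 81.7, lower in GF by -0.65 ± 0.14 (0.0014), with Vip at -1.37 ± 0.31 (0.00147) and Lamp5 at -0.80 ± 0.21 (0.00312). With the length and GC correction none of these passed, at -0.03 in interneurons, -0.78 in Vip and -0.17 in Lamp5, and the call in Pvalb (-0.58) turned to 0.03.

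Grin2a and Grin2b, the longest members, gave no GF vs. SPF call that held under every alternative. In Hip excitatory neurons Grin2a was 2658, 2422 and 2472 CPM in GF, 2948, 3112 and 3028 in SPF and 3052, 3008 and 3465 in CGF libraries, GF lowest. The difference from SPF was -0.42 in excitatory neurons, -0.52 ± 0.06 in CA3 (edgeR adjusted p = 3.45e-05), -0.37 in DG and -0.36 in CA1, and these turned to between 0.04 and 0.15 with the length and GC correction. Grin2b was called lower in 4 Hip types and, with that correction, higher in 7 of 14. In the PFC Grin2a was lower in Vip interneurons, at 404, 425 and 549 CPM in GF, 1171, 746 and 709 in SPF and 1092, 798 and 951 in CGF libraries (-0.81 ± 0.20, 0.00365), from 291 GF, 94 SPF and 110 CGF nuclei with 29 to 109 per library, and each of Grin2a and Grin2b was called lower in 3 of 16 PFC types. Gm14330, antisense to Grin2b, ranged over 34.9–130 CPM in GF excitatory nuclei of the PFC, 0.208–1.26 CPM in those of SPF and 1.30–2.55 CPM in those of CGF mice, and in the Hip over 54.8–139, 29.2–61.6 and 60.2–67.9 CPM. Gm14329 held 13.2–13.8 CPM in GF and 5.85–8.06 CPM in SPF excitatory nuclei of the Hip, and 8.16–14.2 and 0.202–0.477 CPM in the PFC. Gm26653 held 2.07–2.59 CPM in GF and 4.41–6.61 CPM in SPF excitatory nuclei of the PFC. The part of these genes in the Grin2b counts was not tested.

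**Figure D5:**
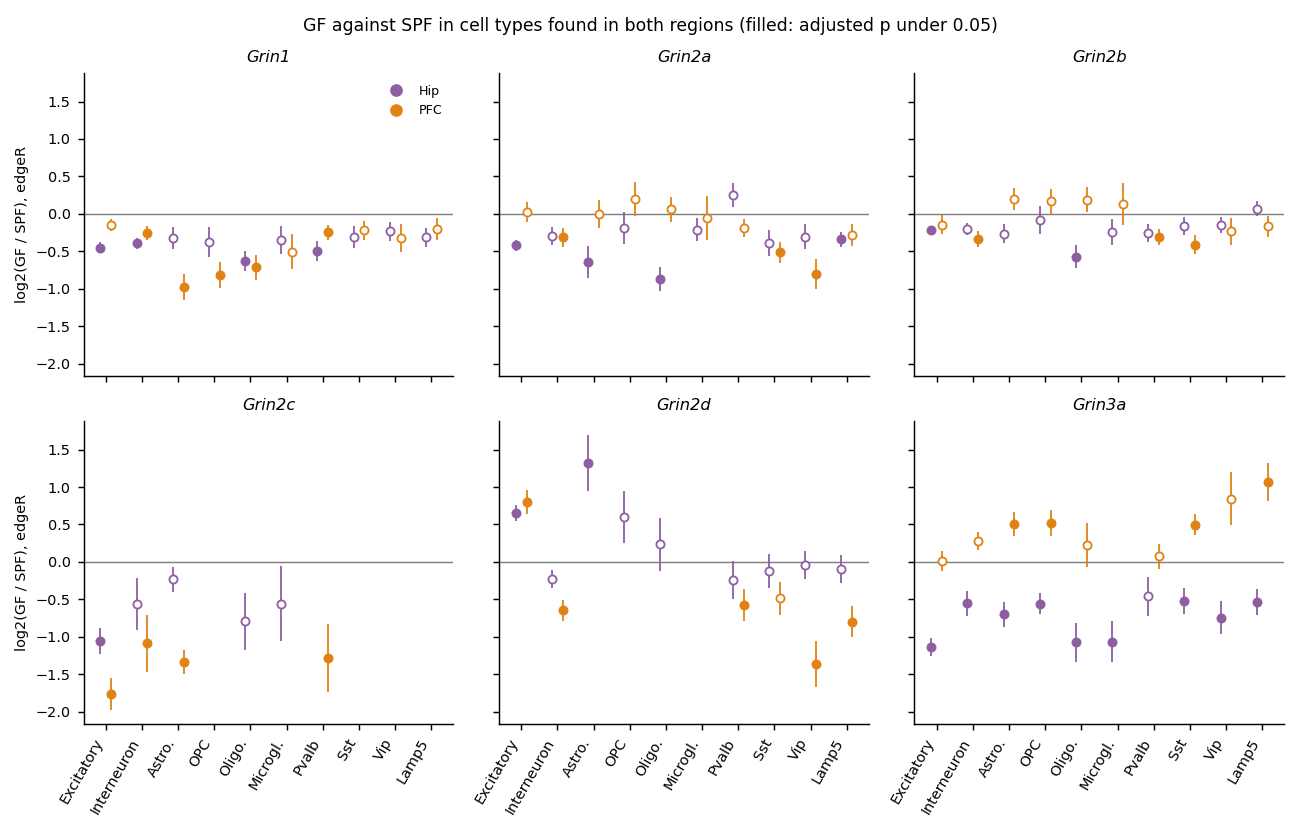
Log2 difference of GF from SPF by edgeR (points, bars are SE) for 6 subunits in the 10 cell types of both regions where a test could be made, Hip in purple and PFC in orange, filled where the adjusted p was under 0.05. Grin3a lies below 0 in the Hip and mostly above it in the PFC; with a correction for gene length and GC content the sign turns for Grin2a and Grin2b in Hip excitatory neurons and for Grin2b in Hip oligodendrocytes, and for Grin1 and Grin2d in some PFC interneurons.

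GF was then compared with CGF, which shares the GF libraries with the comparison above, so these comparisons are not independent. In the Hip 40 of 78 tests passed, 3 higher and 37 lower in GF, against a background of 35.2% (19.1% higher and 16.2% lower), and 11 held under every alternative. These 11 were Grin1 in excitatory neurons (-0.35), oligodendrocytes (-0.58), DG (-0.35), CA1 (-0.38) and CA3 (-0.43), Grin3a in excitatory neurons (-0.94), DG (-1.14, edgeR adjusted p = 2.19e-05) and CA1 (-0.83), Grin2d in excitatory neurons (0.70) and DG (0.84), and Grin2c in excitatory neurons (-0.93). In the PFC 43 of 79 passed, 13 higher and 30 lower, against a background of 48.3% (24.4% and 23.9%), and 17 held. With the length and GC correction the splits were 9 higher and 15 lower in the Hip and 23 higher and 32 lower in the PFC.

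Grin2b was lower in GF than in CGF in most PFC types. Excitatory neurons held 1561, 1781 and 2059 CPM in GF, 2264, 2155 and 2205 in SPF and 2777, 2755 and 3305 in CGF libraries, and upper-layer neurons 1762, 1936 and 2312, 2497, 2358 and 2451, and 2982, 3038 and 3562. GF lay lowest, SPF between and CGF highest, with no overlap between groups in either. GF was below CGF in excitatory neurons by -0.53 ± 0.13 (SE, edgeR adjusted p = 0.00273), in interneurons by -0.51, in upper-layer neurons by -0.48, in NP by -0.56, in L6CT by -0.57 and in Pvalb by -0.50, and 12 of 16 types were called lower (16 with the length and GC correction and 13 with library totals). Grin3a was higher in GF than in CGF in 10 of 14 PFC types, among them OPC (1.10 ± 0.18, 2.17e-05), and Vip interneurons, with 117, 65.5 and 118 CPM in GF and 48.9, 18.7 and 36.9 in CGF (1.69 ± 0.40). Grin2c in PFC astrocytes was lower in GF by -1.51 ± 0.16 (1.13e-07).

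No subunit differed between CGF and SPF by edgeR at an adjusted p under 0.05 in any type, 0 of 78 in the Hip and 0 of 79 in the PFC, against backgrounds of 0.361% and 0.203%. Unadjusted, 8 and 16 had p under 0.05, and DESeq2 called 0 in the Hip and 3 in the PFC. Grin2b in the PFC had a positive estimate in 16 of 16 types, with a median of 0.37 and p under 0.05 before adjustment in 9, and its lowest edgeR adjusted p was 0.119. These misses do not show that CGF and SPF were alike.

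Both regions came from the same mice, a pairing that the main fit, here and between regions below, did not model and an alternative did. The GF vs. SPF difference was compared between PFC and Hip in the 10 types of both. This difference of differences passed for 14 of 56 tests, 12 with a higher value in the PFC and 2 with a lower one, against a background of 28.7% (15.7% and 13.0%), and the share lies under that background. With the length and GC correction the split was 12 and 9, and with library totals 11 and 8. Grin3a took 8 of the 14. In excitatory neurons the difference of differences was 1.21 ± 0.19 (SE, edgeR adjusted p = 4.03e-05), in astrocytes 1.21 ± 0.24 (0.000445), in Sst 1.04 ± 0.23 (0.00104) and in Lamp5 1.61 ± 0.33 (0.000671). It involves the shallow PFC libraries of SPF mice, and the region effect on GF effects cannot be told apart from them.

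Within a group, PFC was compared with Hip. In GF mice, whose PFC libraries were each somewhat deeper than their Hip libraries, 11 of 56 tests passed, 9 higher and 2 lower in the PFC, against a background of 10.9% (5.67% higher and 5.19% lower). Among them Grin1 and Grin2b were each called higher in 1 type (edgeR adjusted p = 1.63e-06 and 9.93e-06). The highest log2 difference over all types, glia included, was 1.07 for Grin1, 1.15 for Grin2b and 1.14 for Grin2a. The types behind these values are not named here, so they are not read as differences of neurons. In GF oligodendrocytes the median factor of the neuronal genes was 28.1% in the Hip and 55.2% in the PFC. The part of neuronal RNA in any glial calls between regions was not tested. In SPF mice 23 of 56 passed, 15 higher and 8 lower (background 41.5%, 19.8% higher and 21.7% lower), and in CGF mice 31 of 56, 20 higher and 11 lower (background 43.3%, 21.2% and 22.1%). In SPF and CGF mice the PFC libraries are the 6 shallow ones, so there region and library depth cannot be told apart, nor can a difference between these groups and GF in the region values that follow. The length and GC correction made these splits 12 and 14 in SPF and 16 and 13 in CGF mice. Pvalb interneurons differed in Grin3a, with 187, 255 and 273 CPM in the PFC of GF mice against 44.9, 86.2 and 56.6 in the Hip, and no overlap. The log2 difference was 1.93 ± 0.23 in GF (edgeR adjusted p = 3.64e-06), 1.38 ± 0.24 in SPF (3.4e-05) and 0.61 ± 0.24 in CGF mice (0.0401). Grin2a in Pvalb was 1002, 1138 and 1225 CPM in the PFC against 474, 640 and 663 in the Hip of GF mice, and differed by 0.91 (9.94e-05), 1.32 (3.73e-08) and 1.30 (4.49e-08) in GF, SPF and CGF. In Sst Grin2a was higher in the PFC by 0.65, 0.76 and 0.57. Excitatory neurons of the PFC held less Grin2a, by -0.39, -0.89 and -0.87, and less Grin2d, by -0.48, -0.68 and -0.74, but the excitatory subtypes of the regions are not the same. Grin2c in astrocytes was higher in the PFC by 1.36 in SPF (1.16e-06) and 1.56 in CGF mice (8.92e-08), and did not pass in GF mice. Lamp5 and Vip interneurons held less Grin3a in the PFC, by -1.78 and -2.02 in SPF and -1.59 and -2.40 in CGF mice, but in GF mice the differences were -0.17 and -0.37 and did not pass.

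The subunits work with a wider set of proteins, and 39 such genes were counted as a list: 14 scaffolds of the postsynaptic density, 18 signalling partners, the auxiliary protein Neto1 and 6 genes of glycine and D-serine supply and removal. The list was also chosen with earlier results known. In Hip excitatory neurons 4 were higher and 19 lower in GF than in SPF out of 39 tested, against a background of 46.0% (25.1% higher and 20.9% lower). With the length and GC correction this became 9 higher and 6 lower, and with library totals 5 and 15. Calm2, which encodes calmodulin, averaged 684 CPM in GF and 335 in SPF (log2 difference 0.88), and the scaffold Dlg4 differed by 0.35. Homer3 (-1.07), Neto1 (-0.77, 225 against 345 CPM) and Rasgrf2, a Ras exchange factor (-0.75), were lower, Rasgrf2 not passing with the length and GC correction. In Hip astrocytes 3 were higher and 7 lower of 38, a share under the background of 31.9%, whose split by direction is not given here. With the length and GC correction 4 were higher and 2 lower. Calm2 (1.12) and Slc7a10, a transporter of D-serine and glycine (0.72), were among the higher. Neto1 (-1.08), Dlg2 (-0.90) and Rasgrf2 (-0.77) were among the lower, of which Dlg2 and Rasgrf2 did not pass with that correction. Calm2, Neto1 and Rasgrf2 had the same sign in Hip excitatory neurons. The summed level of the neuronal genes in Hip astrocytes was 23.5% to 40.4% of that in all nuclei. The part of neuronal RNA in these astrocyte values was not tested. In PFC excitatory neurons 7 were higher and 18 lower of 38, a share near the background of 63.0%. The split of that background by direction is not given here, so neither direction is set against it. With the length and GC correction 10 were higher and 12 lower. Homer1 (1.14), Dlg2 (0.97) and Srr, the serine racemase that makes D-serine (0.76), were higher, and Calm3 (-2.13) and Camk2b (-1.74) lower, also with both other scalings. CGF and SPF differed in 1 gene of the list in Hip excitatory neurons, Homer3 (-0.81, edgeR adjusted p = 0.0444), against a background of 0.676%.

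Across the 30 types of both regions, the genes whose mean level (log2) most resembled that of each subunit were sought among 11034 genes, as a description. These types share libraries, the classes hold the subtypes, and excitatory neurons and glia lie far apart in most genes. Grin1 and Grin2b resembled each other most (Pearson's r = 0.97), followed for Grin1 by Svop and Bicdl1 (0.96 each) and for Grin2b by Svop and Armc9 (0.95 each). Grin2a was most like Sidt1 (0.88), Prdm10 (0.86) and Rasgrf1 (0.82). Grin2c was most like Cbs, C030018K13Rik (0.97 each) and Mettl11b (0.96). Grin2d was most like Dlx6os1 (0.95), Dlx6 and Kcnmb2 (0.94 each), of which Dlx6os1 was a marker used to name interneurons. Grin3a had no close match, with Dchs1 at 0.81, Ugdh at 0.79 and Usp40 at 0.79. Among the members themselves r was 0.79 for Grin1 with Grin2a, 0.76 for Grin2a with Grin2b, 0.56 for Grin2d with Grin3a, -0.08 for Grin1 with Grin3a and -0.68 for Grin1 with Grin2c.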

How the data were processed

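Per the labels, single-nucleus libraries of Hip and PFC were made with the Chromium 3' v3.1 kit, and the deposited raw UMI counts per gene and nucleus are, per the file headers, unnormalised output of Cell Ranger 3.1.0. The authors aligned reads to mm10 with Ensembl 92, and the submitters' processing notes also name CASAVA 1.8. The design text of the series names older kit and Cell Ranger versions. Nuclei with at least 200 genes and at most 10% mitochondrial UMIs were kept, 138000 in all. They were grouped on marker genes alone (40 principal components, 20 neighbours, Leiden resolution 2, interneurons again with 15 components and resolution 1). A cluster was named where its best marker list scored at least 0.4 and the next competing list at most 0.7 of it. The list of committed oligodendrocytes did not compete where the OPC list was best. For interneuron subtypes the least score was 0.5, on a scaled score. No doublet caller was run. UMIs were summed per library and type, since the mouse is the replicate. Group and region differences used edgeR 4.0.16 (TMM, filterByExpr, quasi-likelihood F-test, adjusted p under 0.05) over all genes of a type in R 4.3.3, with all 9 libraries of a region, or all 18, in 1 fit. DESeq2 1.42.0 was an alternative. Type differences, glial levels and Grin2a to Grin2b ratios used exact permutation tests. On simulated GF vs. SPF counts, 2-, 1.5- and 1.25-fold changes were recovered in 100%, 74% and 12% of cases in PFC excitatory neurons (17224 genes, 5.92% of calls false), 96%, 54% and 8% in Hip CA1 (15455 genes, 9.15% false) and 46.8%, 10.9% and 0% in PFC OPC (7418 genes, 7.69% false), so false calls in these simulations exceeded the 5% aimed at. Each simulation was 1 run with 50 genes changed at each fold size. The real GF vs. SPF fit called 63.0% of genes in PFC excitatory neurons, so the simulated shares need not hold for the real contrasts. The alternatives were another tool, no filter, only the compared groups, thinned counts, offsets that correct for gene length and GC in every library, a stricter gate (6 UMIs of the class list and 4 of the subtype list), leaving out the 5% of nuclei with the most UMIs, leaving out each mouse, the mouse as a replicate block, and library totals without TMM factors, the last chosen after seeing the data.

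The members, the gene lists and the tests were chosen with earlier results of these data known. All 7 members are described whatever their values, and pathway genes by value for up to 3 with the largest rise and fall among those past the threshold whose groups did not overlap. Some of these genes and some shared sequences are not reported here. The labels give the same mouse numbers in both regions, so mouse numbers pair the libraries. In excitatory neurons the deviations of same-mouse libraries from their group means had correlations of 0.112 to 0.458, and the lowest over all types was -0.076, in interneurons. Gene coordinates are those of GENCODE vM21 on GRCm38, to which 30766 of 30905 genes matched. Counts resting on few UMIs have counting error beside the spread between mice.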

Additional observations from a re-analysis of the deposited data

Results flagged for a closer look

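For 14 subunit and type pairs the GF vs. SPF difference itself differed between PFC and Hip by edgeR's interaction test over all genes, each given as PFC minus Hip on the log2 scale ± SE. Grin3a accounted for 8 of them, with a higher value in the PFC in each: astrocytes 1.21 ± 0.24 (adjusted p = 0.000445), excitatory neurons 1.21 ± 0.19 (4.03e-05), interneurons 0.83 ± 0.22 (0.00456), Lamp5 1.61 ± 0.33 (0.000671), OPC 1.06 ± 0.24 (0.00188), oligodendrocytes 1.31 ± 0.39 (0.0158), Sst 1.04 ± 0.23 (0.00104) and Vip 1.66 ± 0.45 (0.0129). Grin1 in excitatory neurons differed by 0.36 ± 0.11 (0.00892), which turned to -0.000821 with library totals. Grin2a differed by 0.50 ± 0.15 (0.0113) in excitatory neurons, which turned to -0.16 with the length and GC correction, and by 0.94 ± 0.24 (0.00559) in oligodendrocytes, and Grin2b by 0.78 ± 0.24 (0.0211) in oligodendrocytes. In oligodendrocytes both genes lay under the level predicted from neuronal RNA, in the Hip within the list's own spread, and Grin3a did not differ detectably from the main prediction in either region. The median factor of the neuronal genes in Hip oligodendrocytes was 28.1% in GF and 34.1% in SPF mice. In PFC oligodendrocytes it was 55.2% and 46.9%. The part of these factors in the oligodendrocyte differences was not tested. Grin2c in astrocytes (-1.11 ± 0.25, 0.0017) and Grin2d in Vip interneurons (-1.26 ± 0.35, 0.0142) had lower values in the PFC. Of the 14, 5 held under every alternative, and all rest on the 3 SPF libraries of the PFC, which had medians of 3037 to 3208 UMIs per nucleus against 6172.5 to 7087 in the Hip. The part of that depth difference, and of the mitochondrial shares given above, was not tested.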

How the results depend on the processing

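Of the single-gene values recomputed under alternatives, 3804 kept direction and side of the threshold, 508 kept direction but no longer passed, 38 changed sign and 13 moved by more than the spread. With offsets for gene length and GC content, GF vs. SPF in the Hip turned for Grin2b to 0.28 in excitatory neurons, 0.0398 in oligodendrocytes, 0.32 in DG and 0.30 in CA3, and for Grin2a to 0.0737 in excitatory neurons, 0.15 in DG, 0.13 in CA1 and 0.0387 in CA3, and in the PFC for Grin1 to 0.22 in interneurons and 0.23 in Pvalb and for Grin2d to 0.0270 in Pvalb. GF vs. CGF in the Hip turned for Grin2b to 0.28 in excitatory neurons, 0.21 in interneurons, 0.17 in oligodendrocytes, 0.46 in DG, 0.22 in CA1, 0.31 in CA3, 0.12 in subiculum and 0.11 in Vip, and for Grin2a to 0.0721 in excitatory neurons, 0.0234 in astrocytes, 0.11 in microglia, 0.28 in DG and 0.0768 in CA3, and in the PFC for Grin2d to 0.14 in interneurons and for Grin1 to 0.0460 in astrocytes. The difference of differences of Grin2a in excitatory neurons turned to -0.16. PFC against Hip turned in SPF for Grin2c in excitatory neurons to -0.0900 and Grin2d in interneurons to -0.11, and in CGF for Grin2c in excitatory neurons to -0.0469, Grin2d in interneurons to -0.14 and Grin1 in astrocytes to -0.0661. Elsewhere Grin1 in Hip Sst, GF vs. CGF, turned to 0.0176 with the stricter gate, the difference of differences of Grin1 in excitatory neurons to -0.000821 with library totals, Grin2d in PFC Vip against Sst to -0.0651 in GF libraries alone, Grin1 and Grin2b in Hip astrocytes against neuronal RNA to 0.0140 and 0.13 with median scaling, and Grin2c in Hip microglia to -0.18 with the stricter gate. The cause of these changes was not tested.

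Counts of calls moved by over 1.5 times to 47 for GF vs. SPF in the PFC with library totals (31 reported), to 24 for GF vs. CGF in the Hip with the offsets (40), and to 3 for CGF vs. SPF in the PFC both with no filter and with DESeq2 (0). Without 1 mouse the calls were 30 to 39 (Hip) and 20 to 32 (PFC, 20 without SPF mouse 30) for GF vs. SPF, 33 to 41 and 29 to 43 for GF vs. CGF, 0 to 0 and 0 to 2 for CGF vs. SPF, 9 to 16 for the difference of differences (9 without SPF mouse 30), 8 to 11 (GF), 17 to 23 (SPF) and 18 to 31 (CGF, 18 without mouse 19) for PFC against Hip, and 0 to 0 in both regions for the Grin2a to Grin2b ratio. With the mouse as a replicate block the difference of differences gave 18 calls, adding Grin1, Grin2a and Grin2b in astrocytes and Grin3a in microglia, and PFC against Hip gave 14, 24 and 31 in GF, SPF and CGF. Library totals in place of TMM factors moved the median of all genes by between -0.05 and 0.18 in Hip and -0.22 and 0.12 in PFC types for GF vs. SPF. Levels under about 10 CPM and types of few nuclei rest on few UMIs and limit Grin2c outside astrocytes, Grin2d in excitatory neurons and Grin3b throughout.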
